A study of Mus musculus with 8 samples.

Results

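Cndp2 encodes the cytosolic nonspecific dipeptidase, a metal-dependent enzyme that splits dipeptides inside the cell. It was 1 of the 16889 genes in the deposited table of UMIs (unique molecular identifiers, each a counted RNA molecule) and was chosen because its level was already known to differ between the groups of these data, so its own values are a description without a test. The files carry it as ENSMUSG00000024644, and the annotation places it on the minus strand of chromosome 18, from 84667465 to 84685702 on GRCm38, the assembly that mm10 names. The 3′ kit counts all 9 annotated transcripts of Cndp2 together, so the values are for the gene and not for an isoform.

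Single-cell RNA sequencing was done on cells of the lamina propria of the colon, gated for CD11b together with CCR2 or CD64 and sorted from 8 female CD98ΔCX3CR1 mice, aged 6 to 12 weeks per the study's methods. All 8 mice, controls included, carried floxed CD98hc and an inducible Cre recombinase with a YFP reporter, both under the Cx3cr1 promoter. Control mice 1 to 4 received corn oil and cKO mice 5 to 8 received 100 µl of tamoxifen at 20 mg/ml, on 5 days each, and cells were taken on day 7. Tamoxifen went to cKO mice alone, so the drug and the deletion cannot be told apart. After filtering, 3213 cells were kept, between 83 and 724 per mouse, with 497531 to 3762314 UMIs per mouse, and the fewest came from control mouse 3 (85 cells) and cKO mouse 5 (83 cells). Every replicate was a separate mouse with a well of its own.

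Proteins that a cell degrades, and peptides that it takes up, pass through dipeptides before they become free amino acids. CNDP2 cleaves many of these, among them cysteinylglycine, the dipeptide left when the extracellular enzyme gamma-glutamyltransferase removes glutamate from glutathione, and so returns cysteine and glycine to the cell. The same enzyme can work in reverse and join lactate to an amino acid, giving N-lactoyl amino acids such as N-lactoyl-phenylalanine, and macrophages are among the cells known to express it. CD98hc, encoded by Slc3a2, is the heavy chain of several amino acid transporters in the plasma membrane, and its deletion was the subject of the study.

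Slc3a2 was read first as the targeted gene. It stood at 358, 264, 233 and 493 CPM (counts of the gene per 1e6 UMIs) in control mice 1 to 4 and at 291, 357, 323 and 309 CPM in cKO mice 5 to 8. These ranges overlapped, with a log2 fold change of 0.02 (SE 0.208) and an adjusted p of 0.976 (quasi-likelihood test in edgeR, Benjamini-Hochberg adjusted). The exon that recombination removes is not the last one, and 3′ tags are read from the end of the transcript, so they do not report the deletion itself and the level of Slc3a2 does not check the labels.

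Cndp2 was low and even across the control mice and higher in every cKO mouse. Summed over all cells of a mouse, it stood at 31.6, 32.1, 23.8 and 36.3 CPM in control mice 1 to 4, a mean of 31.0 ± 5.25 (SD, n = 4). It stood at 50.3, 112, 204 and 136 CPM in cKO mice 5 to 8, a mean of 125 ± 63.4 (SD, n = 4). The groups did not overlap. These levels rested on 119, 105, 14 and 108 UMIs in the control mice and on 25, 185, 506 and 311 UMIs in the cKO mice, so control mouse 3 and cKO mouse 5 were the least precise.

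The log2 fold change of Cndp2 between cKO and control in these sums was 2.14 (SE 0.323), a 4.39-fold difference, and 75 of the 11387 genes tested had a larger one. All 4 cKO mice lay above all 4 control mice, as they did for 456 of these genes, 4% of them, or for 666 (5.85%) when CPM were scaled with TMM factors. The rule that chose Cndp2 used this contrast, and nothing is read from its place in it. Without cKO mouse 5 the cKO mean was 150.5 ± 47.5 CPM (SD, n = 3), and leaving out each mouse in turn gave log2 fold changes between 1.79 and 2.37. In such sums, fewer cells of a type and less RNA per cell cannot be told apart.

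**Figure D1:**
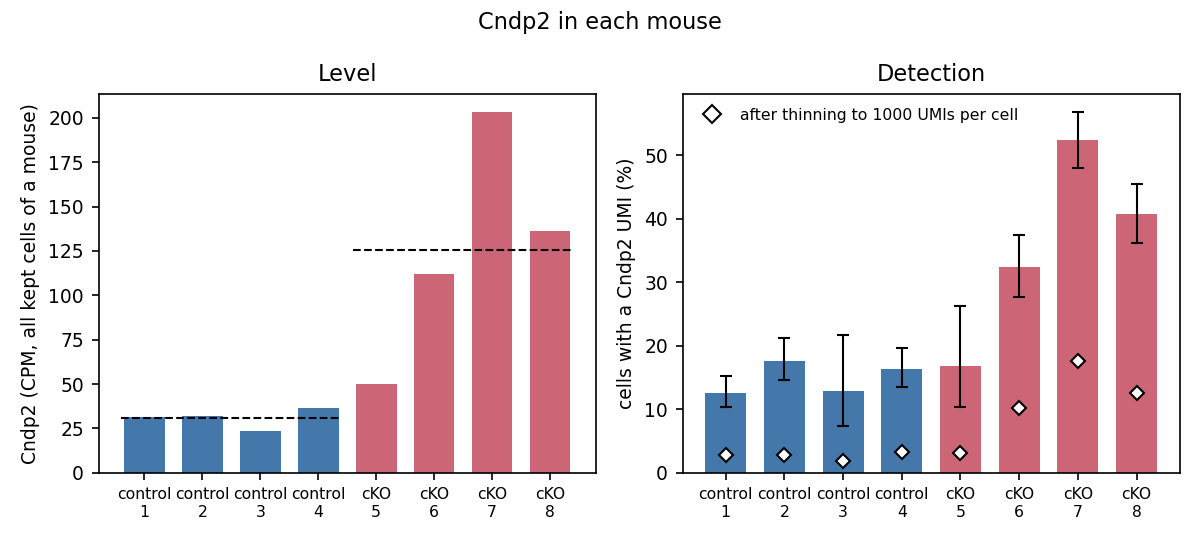
Cndp2 in each mouse, all kept cells summed, with a bar per mouse. The left panel gives CPM with a dashed line at each group mean (n = 4), and the right panel the percent of cells with at least 1 Cndp2 UMI, with Wilson intervals as error bars and, as diamonds, the percent after thinning each cell to 1000 UMIs. In CPM the control mice lie between 23.8 and 36.3 and the cKO mice between 50.3 and 204, while in the percent of cells cKO mouse 5 (16.9%) lies inside the control range of 12.6% to 17.6%.

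The share of cells with a Cndp2 UMI followed the level in 3 of the 4 cKO mice. It was 12.6%, 17.6%, 12.9% and 16.4% in control mice 1 to 4 (mean 14.9 ± 2.51, SD, n = 4) and 16.9%, 32.4%, 52.5% and 40.8% in cKO mice 5 to 8 (mean 35.6 ± 14.98, SD, n = 4). Cndp2 was thus seen in most cells of no mouse but cKO mouse 7, and cKO mouse 5 overlapped the controls. The median cell held 4769 to 5538 UMIs in control mice and 4149 to 5180 in cKO mice. With each cell thinned to 1000 UMIs, the shares were 1.88% to 3.34% in control mice and 3.12%, 10.2%, 17.7% and 12.6% in cKO mice 5 to 8. No cell class in these data is known to lack Cndp2, so no share could be set as the level that free RNA alone gives.

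Cells with several Cndp2 UMIs were rare in control mice and more common in cKO mice. Cells with at least 3 Cndp2 UMIs numbered 5, 1, 0 and 3 in control mice 1 to 4, at most 0.69% of the cells of a mouse. They numbered 3, 22, 65 and 32 in cKO mice 5 to 8, which is 3.61%, 6.30%, 13.4% and 7.37% of their cells. All 4 cKO mice lay above all 4 control mice in this share, although cKO mouse 5 rests on 3 cells. The highest count in a single cell was 2 to 5 UMIs in the control mice and 5 to 8 UMIs in the cKO mice. Cells with at least 3 UMIs held 38.9% to 49.6% of all Cndp2 UMIs of a cKO mouse and 0% to 16.8% of those of a control mouse.

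**Figure D2:**
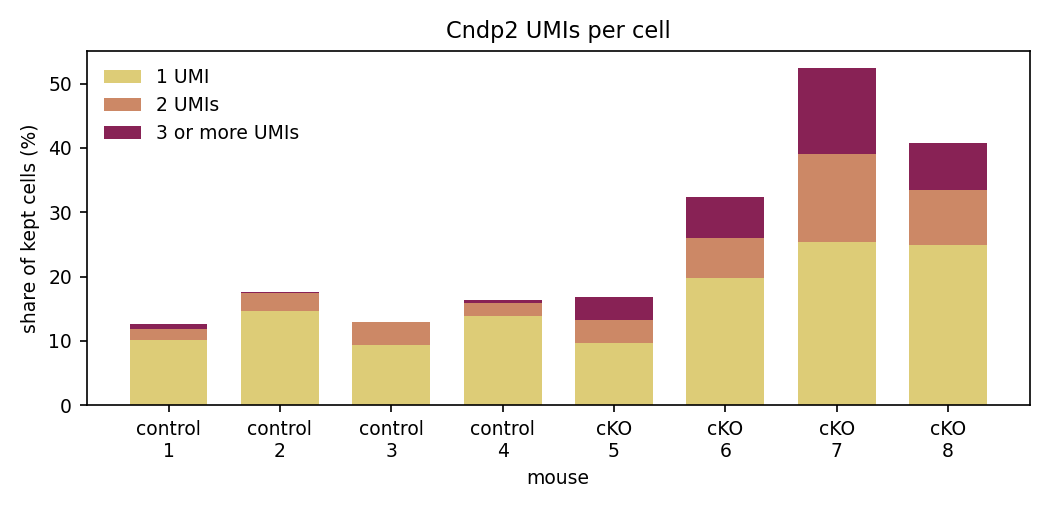
Percent of the kept cells of each mouse with 1, 2 or at least 3 Cndp2 UMIs, with a bar per mouse starting at 0. The part with at least 3 UMIs reaches 0.69% at most in control mice and 13.4% in cKO mouse 7.

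Cells were then divided into 9 clusters without using Cndp2, and clusters were named by marker genes. Monocyte-like cells formed a cluster led by Il1a (475 cells) and another led by Chil3 (427 cells), each with 7 of 8 monocyte markers at least 2-fold up, such as Ly6c2 and F13a1. Macrophage-like cells, with C1qa, C1qb, C1qc, Adgre1 and Pf4, formed a cluster led by Fcrls (466 cells) and a cluster of low RNA content led by Ccl8 (263 cells), whose median UMI count was 0.239 of that of its own mice. Dendritic cell-like (535 cells, Flt3, Xcr1 and Cd209a), lymphoid-like (181 cells, Cd3e, Cd79a and Jchain) and stromal-like cells (86 cells, Dcn and Col3a1) were also present in the sort. A Ccl24 cluster (492 cells) and a Cebpb cluster (288 cells, 0.335 of the median UMI count of its own mice) kept their leading gene as a name because their markers fixed no type.

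Within these classes, the log2 fold changes of Slc3a2, the targeted gene, were -0.94 (SE 0.287, adjusted p = 0.167 in edgeR) in Il1a monocyte-like cells, -0.60 (SE 0.249) in the Ccl24 cluster, -0.53 (SE 0.263) in dendritic cell-like and -0.47 (SE 0.275) in Chil3 monocyte-like cells. They lay between -0.14 and 0.45 in the other 4 classes, and none of the 8 passed the test.

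By the mean over mice, Cndp2 was highest in Il1a monocyte-like cells of cKO mice, although in cKO mouse 7 the Cebpb cluster (277 CPM) lay above them. There it reached 195, 264 and 268 CPM in cKO mice 6, 7 and 8, against 65.7 and 21.6 CPM in control mice 1 and 4, the only controls with 20 or more such cells. The cKO mice lay above both control mice, and the control mice lay far apart in a class where each held 9 Cndp2 UMIs. The log2 fold change was 2.92 (SE 0.429), 3.55 without control mouse 1 and 2.15 without control mouse 4, each with a single control mouse left, which is then assumed to vary like the other groups. Over all mice, 65.6% of cKO cells and 13.7% of control cells of this class had a Cndp2 UMI (median depths of 6013 and 5182 UMIs), and after thinning to 1000 UMIs the shares were 21.8% and 3.13%. The cluster is led by Il1a, Arg2, Saa3 and Acod1, genes of activated myeloid cells.

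Chil3 monocyte-like cells, led by Chil3 and Lyz1 and with the highest Ccr2 of the classes (907 CPM over all mice), showed the steadiest difference. Cndp2 stood at 25.3, 26.3 and 35.9 CPM in control mice 1, 2 and 4 and at 156, 157 and 123 CPM in cKO mice 6, 7 and 8. The gap between the groups was wider than either range, and the log2 fold change of 2.30 (SE 0.376) stayed between 2.24 and 2.45 when any mouse was left out. A Cndp2 UMI was found in 11.3% of control cells and 43.9% of cKO cells. The 13 such cells of cKO mouse 5, too few for the fit, held 2 Cndp2 UMIs (22.4 CPM), a level below that of the 3 control mice in the fit.

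In macrophage-like cells Cndp2 was also higher in cKO mice 6, 7 and 8 than in control mice 1, 2 and 4. In the Fcrls cluster it stood at 44.9, 34.2 and 40.5 CPM in control mice 1, 2 and 4 and at 130, 106 and 166 CPM in cKO mice 6, 7 and 8, with a log2 fold change of 1.67 (SE 0.372). In the Ccl8 cluster it stood at 0, 21.03 and 65.4 CPM against 136, 124 and 192 CPM in the same mice, with a log2 fold change of 2.76 (SE 0.709). These mice did not overlap between the groups in either cluster. The Ccl8 values of these control mice rest on 4 UMIs in all, 3 of them in control mouse 4, and without this mouse the log2 fold change was 4.19. The control mouse at 0 had 61 such cells and 70472 UMIs, which allows a level of up to 42.6 CPM. Too few for the fit, the 12 Fcrls cells of cKO mouse 5 held 3 Cndp2 UMIs (42.8 CPM), inside the range of control mice 1, 2 and 4. The 12 such cells of control mouse 3 stood at 78.5 CPM. In the Ccl8 cluster cKO mouse 5 held 0 Cndp2 UMIs in 10 cells, which allows up to 195 CPM, and control mouse 3 held 1 in 10 cells (77.3 CPM).

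The Ccl24 cluster, a C1qb-positive cluster with high Ccr2 and Fcgr1, stood at 15.8, 13.4, 18.7 and 34.5 CPM of Cndp2 in control mice 1 to 4. In cKO mice 6, 7 and 8 it stood at 81.7, 138 and 96.1 CPM. These mice did not overlap between the groups. The log2 fold change was 2.105 (SE 0.355), or 2.63 without control mouse 4, the highest of the controls. The 16 such cells of cKO mouse 5, too few for the fit, held 2 Cndp2 UMIs (17.7 CPM), inside the control range. In the Cebpb cluster only 2 Cndp2 UMIs were counted over all control mice, against 50 over all cKO mice. The cKO mice 6, 7 and 8 stood there at 71.2, 277 and 141 CPM, and the ratio of pooled CPM was 15.65, with an exact 95% counting interval from 4.11 to 133.

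Among the classes with a fit, dendritic cell-like and lymphoid-like cells showed the smallest differences. In dendritic cell-like cells Cndp2 stood at 35.0, 33.8, 7.90 and 41.8 CPM in control mice 1 to 4 and at 66.5, 62.8 and 42.6 CPM in cKO mice 6, 7 and 8. The lowest cKO mouse lay just above the highest control mouse, and the log2 fold change was 0.64 (SE 0.349), with 0.47 to 0.81 when single mice were left out. In lymphoid-like cells control mice 1, 2 and 4 stood at 17.4, 39.4 and 49.98 CPM and cKO mice 6, 7 and 8 at 45.7, 50.1 and 40.9 CPM. These groups overlapped, and the log2 fold change was 0.39 (SE 0.595). Stromal-like cells held 12 Cndp2 UMIs in control mice and 3 in cKO mice, a ratio of pooled CPM of 0.905 with an exact 95% counting interval from 0.164 to 3.35, so neither a rise nor a fall could be seen at this depth.

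Mouse 5 of the cKO group had too few cells for any class fit, and its values did not lie above the controls in every class. In 7 of the 8 classes with a fit, cKO mice 6, 7 and 8 lay above all control mice of the fit, lymphoid-like cells being the exception. The same order was found for 12% of the 11099 genes tested in Il1a monocyte-like cells (2 control mice against 3 cKO mice), 6.13% in Chil3 monocyte-like cells, 6.42% in the Fcrls cluster and 2.46% in the Ccl8 cluster. It was found for 4.07% in the Ccl24 cluster, 4.96% in the Cebpb cluster, 3.5% in dendritic cell-like cells and 4.06% in lymphoid-like cells. The share was thus highest where the fewest mice were compared, and nothing is read from the place of Cndp2 among these genes. Larger log2 fold changes than that of Cndp2 were fitted for 185 genes in Chil3 monocyte-like cells, 137 in the Ccl24 cluster, 338 in the Fcrls cluster, 339 in Il1a monocyte-like cells and 574 in the Cebpb cluster. They were fitted for 1211 genes in dendritic cell-like cells, 1369 in the Ccl8 cluster and 3305 in lymphoid-like cells. Whether the fold of Cndp2 differed between classes was not tested, since Cndp2 was chosen on these samples.

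**Figure D3:**
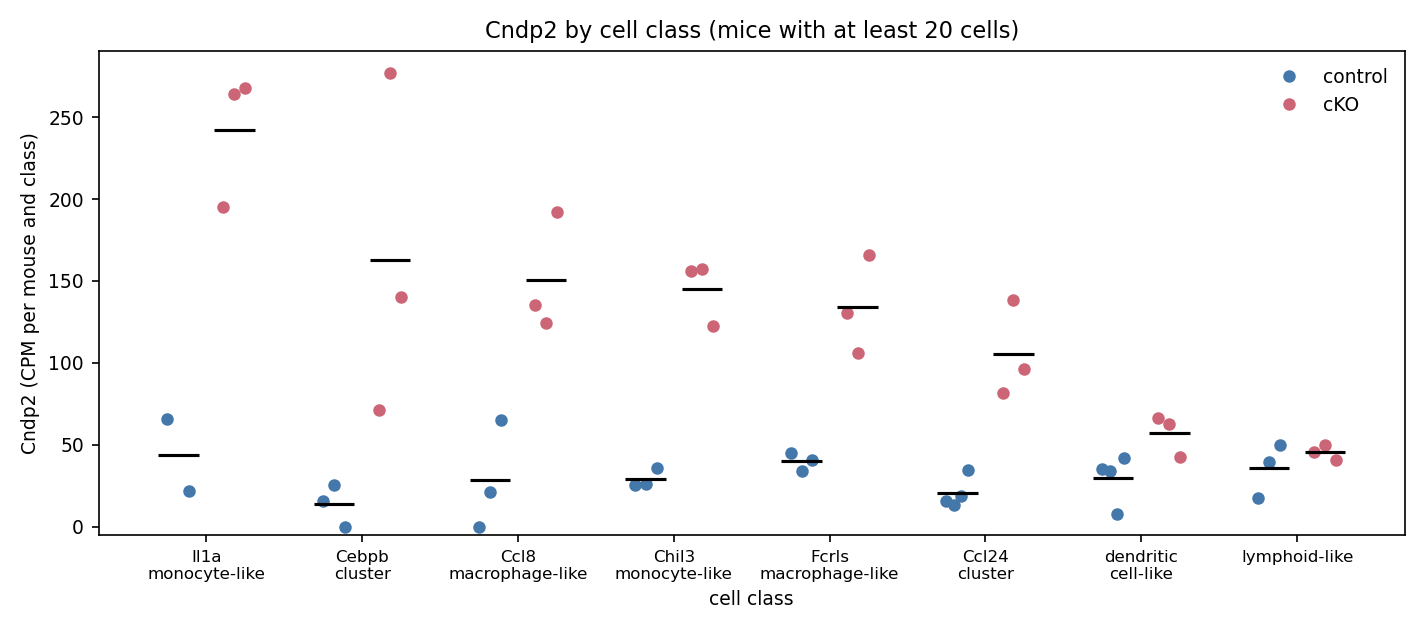
Cndp2 CPM on a linear axis in each cell class, with a point per mouse that had at least 20 cells of the class and a line at the group mean. In monocyte-like, macrophage-like, Ccl24 and Cebpb cells the cKO points lie above the control points, in dendritic cell-like cells the groups touch (42.6 against 41.8 CPM), and in lymphoid-like cells they overlap.

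In control mice neighbouring classes in the order of Cndp2 levels overlapped. Ordered by the mean over mice, Il1a monocyte-like (43.7 CPM), Fcrls macrophage-like (39.9), Xcr1 dendritic cell-like (35.9), lymphoid-like (35.6) and Cd209a dendritic cell-like cells (33.3) came first. They were followed by Chil3 monocyte-like (29.2 CPM), Ccl8 macrophage-like (28.8), stromal-like (21.1, 1 mouse), Ccl24 (20.6) and Cebpb cells (13.8). Some classes farther apart in this order had ranges that did not overlap. The Cebpb cluster (0 to 25.7 CPM) lay below the Fcrls cluster (34.2 to 44.9 CPM) and Xcr1 dendritic cell-like cells (31.3 to 38.2 CPM). The Cebpb range rests on 2 Cndp2 UMIs in all. In each of its control mice, 1, 2 and 4, a count of 3 UMIs would exceed the lowest level of both other classes. These counts therefore cannot separate the Cebpb cluster from them. Dendritic cell-like cells held 42.2% of the Cndp2 UMIs of control mice, with 23.1% of the cells and 39.7% of all UMIs.

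In cKO mice the order was led by Il1a monocyte-like cells, with a mean of 242 CPM (195 to 268 CPM over 3 mice). The Cebpb cluster (163 CPM), Ccl8 macrophage-like (150.5), Chil3 monocyte-like (145), Fcrls macrophage-like (134) and Ccl24 cells (105) followed, each overlapping its neighbour. Lymphoid-like cells lay below all of these at 45.6 CPM, and cKO mice 6, 7 and 8 did not overlap between them and the Ccl24 cluster. Il1a monocyte-like cells held 54.0% of the Cndp2 UMIs of cKO mice, with 26.5% of the cells and 31.5% of all UMIs. Of the 555 Cndp2 UMIs of this class, 363 came from cKO mouse 7. Within cKO mice 6, 7 and 8, the level in this class exceeded that of the other cells of the mouse by 0.96, 0.98 and 1.36 on the log2(CPM + 10) scale, while dendritic cell-like cells lay at -0.77, -1.63 and -1.67 and lymphoid-like cells at -1.20, -1.88 and -1.57.

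Il1a monocyte-like cells rose in share with the level of Cndp2 among the cKO mice. They made up 3.73%, 1.78%, 0% and 14.8% of the cells of control mice 1 to 4, where 0 of 85 cells in mouse 3 allows a share of up to 3.53%, and 3.61%, 13.8%, 46.7% and 18.7% of those of cKO mice 5 to 8. The mouse with the most of them, cKO 7, had the highest Cndp2, and cKO mouse 5, with the fewest of the cKO mice, had the lowest of that group. Across the groups this order did not hold. Control mouse 4 had a larger share of these cells than cKO mouse 6, with Cndp2 at 36.3 against 112 CPM. With all cells of this cluster left out, Cndp2 stood at 30.3, 32.3, 23.8 and 38.8 CPM in control mice 1 to 4. It then stood at 46.8, 95.8, 129 and 98.1 CPM in cKO mice 5 to 8, still above all controls. Weighting the pooled cKO level of each class by the control proportions of UMIs gave 96.5 CPM, against 148 CPM in cKO proportions, and the control levels gave 32.7 CPM in control and 30.0 CPM in cKO proportions.

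Signs of other cells were read beside these values. The summed level of the 8 monocyte markers was 1601 to 3274 CPM in control mice and 6986 to 10250 CPM in cKO mice, and that of the 10 dendritic cell markers was 663 to 732 CPM against 170 to 291 CPM. The 7 neutrophil markers summed to 30.3 to 58.2 CPM in control mice and 84.7 to 135 CPM in cKO mice. The part of these shifts in the all-cell level of Cndp2 was not tested beyond the values within classes. Scrublet called 24 of the 83 cells of cKO mouse 5 doublets, against 2 to 16 cells in each of the other mice. Without all called cells Cndp2 stood at 22.4 to 36.3 CPM in control mice and at 54.5, 110, 202 and 133 CPM in cKO mice 5 to 8.

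Some of the genes that surround Cndp2 in metabolism passed the test, and they moved in both directions. Of 56 genes in 5 lists, 50 were in the table and 44 could be tested in all cells summed. Of these, 3 were higher and 3 were lower in cKO mice by edgeR's quasi-likelihood test (false discovery rate 0.05). Over the 11387 genes tested, 2.99% were called higher and 1.48% lower (510 genes in all, 4.48%), smaller shares than in the lists. Whether the lists differ from all genes was not tested. The median log2 fold change over the 44 genes was -0.08, against -0.03 over all genes. Scaled by library totals without TMM, the median of all genes was -0.13 and the genes called split into 270 higher and 261 lower, against 341 and 169.

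The other cytosolic peptidases had no gene past the threshold. Of 20 listed, 17 were tested, with a median log2 fold change of -0.08. Pepd, the prolidase that splits dipeptides ending in proline, stood at 84.2 ± 16.2 CPM in control and 72.1 ± 16.5 CPM in cKO mice (SD, n = 4 each), and Lap3, a leucine aminopeptidase, at 33.8 ± 9.52 and 35.1 ± 5.52 CPM. Cndp1, the carnosinase that is the closest relative of Cndp2 and lies 17.4 kb from it, was counted with 1, 0, 0 and 1 UMIs in control and 0, 0, 0 and 1 UMIs in cKO mice and could not be tested.

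Among membrane and lysosomal peptidases, 3 of 10 tested genes were lower in cKO mice and none was higher. Naaa, a lysosomal amidase, stood at 543, 758, 677 and 495 CPM in control and at 304, 333, 308 and 318 CPM in cKO mice, with a log2 fold change of -0.87 (SE 0.157, adjusted p = 0.0110). Anpep, the aminopeptidase N of the cell surface, stood at 32.7, 52.3, 47.5 and 31.3 CPM against 22.1, 22.4, 15.3 and 12.3 CPM, a log2 fold change of -1.12 (SE 0.256, adjusted p = 0.0311). Dpp4, a surface peptidase that removes N-terminal dipeptides, stood at 35.4, 49.2, 44.1 and 46.1 CPM against 24.1, 23.6, 21.7 and 25.8 CPM, a log2 fold change of -0.77 (SE 0.170, adjusted p = 0.0268). For each of these genes the highest cKO mouse lay below the lowest control mouse, as for 8.34% of all genes (6.11% with TMM factors).

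Of all classes, dendritic cell-like cells held the most UMIs of Naaa, Dpp4 and Anpep, and they made up 20.2% to 27.5% of control and 4.75% to 10.6% of cKO cells. They held 5044 Naaa UMIs in control mice, against 478 in the Ccl24 cluster, the next class, and 1026 in cKO mice, against 502 in Il1a monocyte-like and 275 in Chil3 monocyte-like cells. For Dpp4 they held 398 UMIs in control and 95 in cKO mice, against 24 and 23 in the next class of each group. For Anpep they held 269 and 53 UMIs, against 57 and 21. In dendritic cell-like cells Naaa stood at 1200 CPM pooled over control and 1064 CPM over cKO mice. Dpp4 stood there at 94.7 and 98.5 CPM and Anpep at 64.0 and 55.0 CPM. Within this class the log2 fold changes were -0.26 for Naaa, 0.05 for Dpp4 and -0.35 for Anpep, with adjusted p of 0.845, 0.998 and 0.884 by edgeR's quasi-likelihood test. How much of the lower sums came from the smaller share of these cells was not tested. Naaa passed the threshold with any mouse left out (adjusted p 0.00496 to 0.0481 in edgeR). The call of Anpep was lost when control mouse 1, 2 or 3 or cKO mouse 7 or 8 was left out (adjusted p 0.0160 to 0.121 in edgeR over the 8 mice left out in turn), and that of Dpp4 without control mouse 2 or cKO mouse 6, 7 or 8 (0.0323 to 0.107).

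The glutathione cycle and the peptide transporters each held 1 gene called higher in all cells summed. Ggct, which releases 5-oxoproline from gamma-glutamyl amino acids in the glutathione cycle, stood at 11.7, 11.3, 15.3 and 19.9 CPM in control and at 36.2, 25.4, 37.0 and 26.3 CPM in cKO mice, with a log2 fold change of 1.21 (SE 0.244, adjusted p = 0.0198). It was the only one of 9 tested genes of that cycle past the threshold, and Slc7a11, the cystine importer subunit that pairs with CD98hc, reached a log2 fold change of 1.14 (SE 0.427) with an adjusted p of 0.155. Slc15a3, a lysosomal transporter of histidine and small peptides, stood at 104, 76.2, 105 and 112 CPM in control and at 223, 189, 211 and 142 CPM in cKO mice, with a log2 fold change of 1.04 (SE 0.187, adjusted p = 0.0110). Ggct and Slc15a3 had no overlap between the groups. Neither was called within a class. The class log2 fold changes of Slc15a3 lay between 0.02 (Fcrls cluster) and 0.98 (dendritic cell-like cells, adjusted p 0.247 in edgeR). Those of Ggct lay between -0.99 (Ccl8 cluster) and 3.11 (Cebpb cluster). In control mice Slc15a3 stood at 28.8 CPM in dendritic cell-like and 216 CPM in Il1a monocyte-like cells. The part of changed cell shares in the sums of both genes was not tested. The call of Slc15a3 stood with any mouse left out (adjusted p 0.0117 to 0.0445), and that of Ggct was lost without control mouse 1 or 2 or cKO mouse 7 (adjusted p 0.00648 to 0.0801).

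Of the genes tied to N-lactoyl amino acids, 1 of 5 tested was higher. Slc16a3, the lactate exporter MCT4, stood at 40.9, 17.1, 32.3 and 64.6 CPM in control and at 44.2, 99.8, 255 and 123 CPM in cKO mice, with a log2 fold change of 1.90 (SE 0.473, adjusted p = 0.0431). Its groups overlapped, and the call was lost when any single mouse other than control mouse 4 or cKO mouse 5 was left out (adjusted p 0.0201 to 0.138). Like Cndp2 it was lowest of the cKO mice in mouse 5 and highest in mouse 7. It was one of the leading genes of the Il1a cluster, at 248 CPM in control and 393 CPM in cKO cells of that class. Ldha, which makes lactate, stood at 690 ± 102 CPM in control and 753 ± 259 CPM in cKO mice (SD, n = 4 each), with an adjusted p of 0.627.

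**Figure D4:**
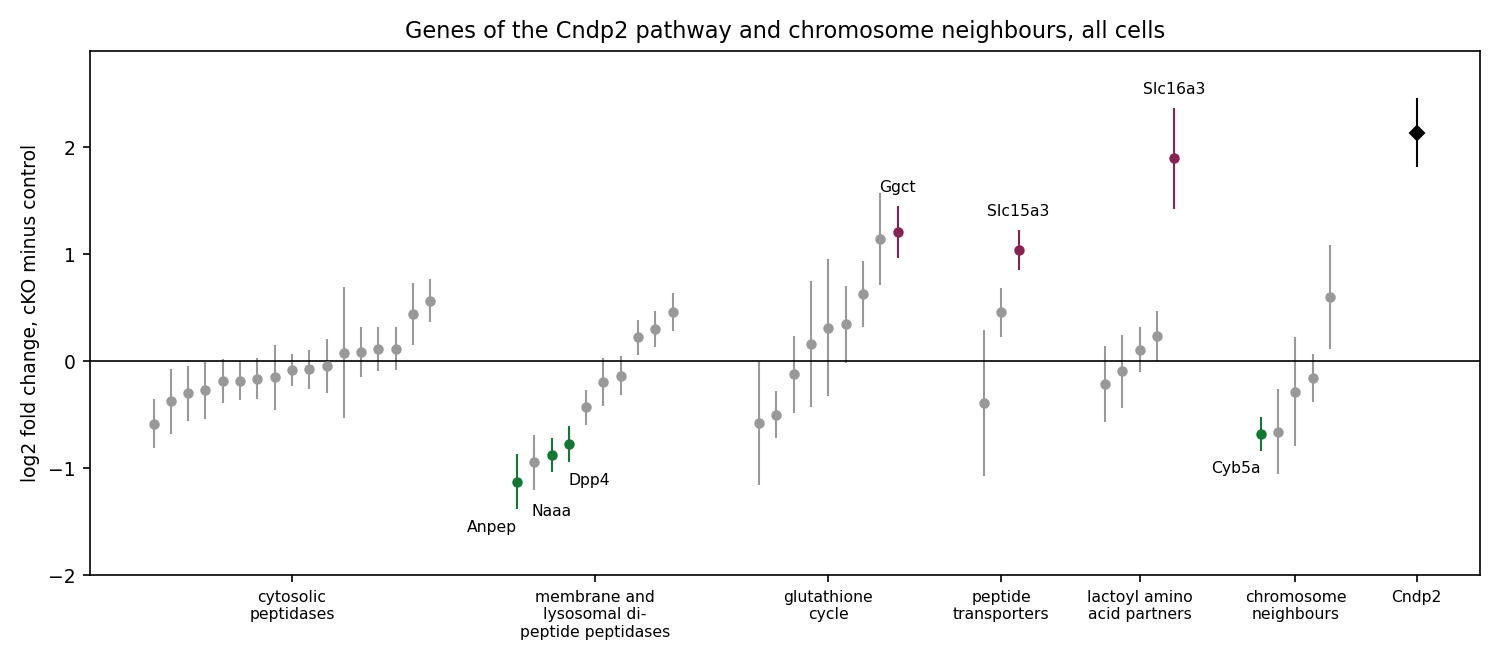
Log2 fold change (cKO over control, all cells summed) of the tested genes of the 5 lists and of the chromosome neighbours, with Cndp2 beside them, 1 point per gene with its SE as a bar, coloured and named where edgeR's adjusted p was under 0.05. Cndp2 lies at 2.14, the called genes at 1.90 (Slc16a3), 1.21 (Ggct), 1.04 (Slc15a3), -0.68 (Cyb5a), -0.77 (Dpp4), -0.87 (Naaa) and -1.12 (Anpep), and the genes in grey between 1.90 and -1.12.

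Within classes, 43 list genes were tested in each of 8 classes, and 1 call was made. Ldha was higher in the Cebpb cluster of cKO mice, at 875 CPM pooled over cKO and 392 CPM over control mice, with a log2 fold change of 1.26 (SE 0.254) and an adjusted p of 0.00502 by edgeR's quasi-likelihood test, in a class where 50 of 11099 genes (0.45%) were called. Of the same genes, 0.505% were called in the Ccl24 and in the Fcrls cluster, 0.0541% in the Ccl8 cluster, 0.775% in Chil3 monocyte-like cells, 0.586% in Il1a monocyte-like cells, 0.441% in dendritic cell-like cells and 0.153% in lymphoid-like cells. The call of Ldha was lost without control mouse 1 (adjusted p 0.109), control mouse 2 (0.145) or cKO mouse 7 (0.117). The class fit took sums of the same mouse in several classes as independent, so these adjusted p may be too small. Median log2 fold changes of the list genes lay between -0.29 (Ccl8 cluster) and 0.08 (Il1a monocyte-like cells). Those of all genes tested were 0 and 0.07 in these 2 classes.

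Of 6 genes of the table within 1 Mb of Cndp2 on chromosome 18, 5 could be tested. Cndp1, the nearest at 17.4 kb, could not. None of the 5 was called higher in cKO mice and 1 was called lower, against 2.99% and 1.48% of all genes tested. With 5 genes nothing is read from these counts. Cyb5a, an electron carrier of the endoplasmic reticulum at 153 kb, was lower, at 184, 213, 190 and 162 CPM in control and 107, 122, 84.1 and 126 CPM in cKO mice. Its log2 fold change was -0.68 (SE 0.159), with an adjusted p of 0.0345 by edgeR's quasi-likelihood test that held when control mouse 4 was left out (0.0194) and was lost when any other single mouse was (up to 0.124). Zfp407 (0.60, adjusted p 0.530), Tshz1 (-0.66, 0.388), Zadh2 (-0.29, 0.801) and Timm21 (-0.16, 0.749) did not pass the test. The nearest of these, Zfp407, lies 77.7 kb from Cndp2.

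Genes that moved with Cndp2 from cell to cell were sought in monocyte-like cells, within each of 6 mice with at least 20 such cells (68 to 143 cells in control mice 1, 2 and 4, and 109 to 276 cells in cKO mice 6, 7 and 8). Over 4320 genes found in at least 10% of these cells, the mean within-mouse Pearson r with Cndp2 had a median of 0.0039, a lowest value of -0.125 and a highest of 0.155. No gene followed Cndp2 closely. The cells of a mouse share a well and its free RNA, only 7 to 19 control cells per mouse held a Cndp2 UMI (51 to 180 in cKO mice), and no test was made.

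The 10 highest mean correlations belonged to Srgn (r = 0.155), Gm7676 (0.147), Esd (0.142), Umps (0.140), Pkm (0.139), Slc31a2 (0.138), Tmem258 (0.135), Ttc39b (0.133), Tgoln1 (0.132) and Timm23 (0.131). Srgn, the core protein of the proteoglycan of secretory granules, was positive in all 6 mice, from 0.078 to 0.312. Pkm is the pyruvate kinase of glycolysis, Umps completes the synthesis of uridine monophosphate, Esd is an esterase and Slc31a2 a copper transporter. Umps, Pkm and Slc31a2 were each negative in control mouse 4 (r = -0.013, -0.041 and -0.017). The lowest mean correlations were those of Ifngr1 (-0.125), a chain of the interferon gamma receptor, Pld4 (-0.121), the ribosomal gene Rps7 (-0.121), Derl2 (-0.106) and Akap13 (-0.105).

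These ranks shifted with the way cells were counted. All 10 leading genes stayed among the first 20 by Spearman correlation, after partial correlation for the UMI total and without doublet calls. None stayed there after thinning cells to 1000 UMIs or within Il1a monocyte-like cells alone, and 4 stayed within Chil3 monocyte-like cells alone. Thinned, Umps, Tmem258 and Ttc39b turned negative, at -0.014, -0.021 and -0.028. The correlation of Cndp2 with the UMI total of the cell averaged 0.063 (-0.066 to 0.184 over mice).

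As whole lists, genes lay near the median of all genes in their correlation with Cndp2. The median mean r was 0.019 over 11 cytosolic peptidases and 0.046 over 3 lactoyl partners that could be compared, Ldha having 0.046. It was -0.011 over 18 interferon-stimulated genes and -0.032 over 7 MHC class II genes, none of which was positive (highest -0.013). Slc3a2 had a mean r of 0.074 and the EYFP reporter one of -0.041.

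**Figure D5:**
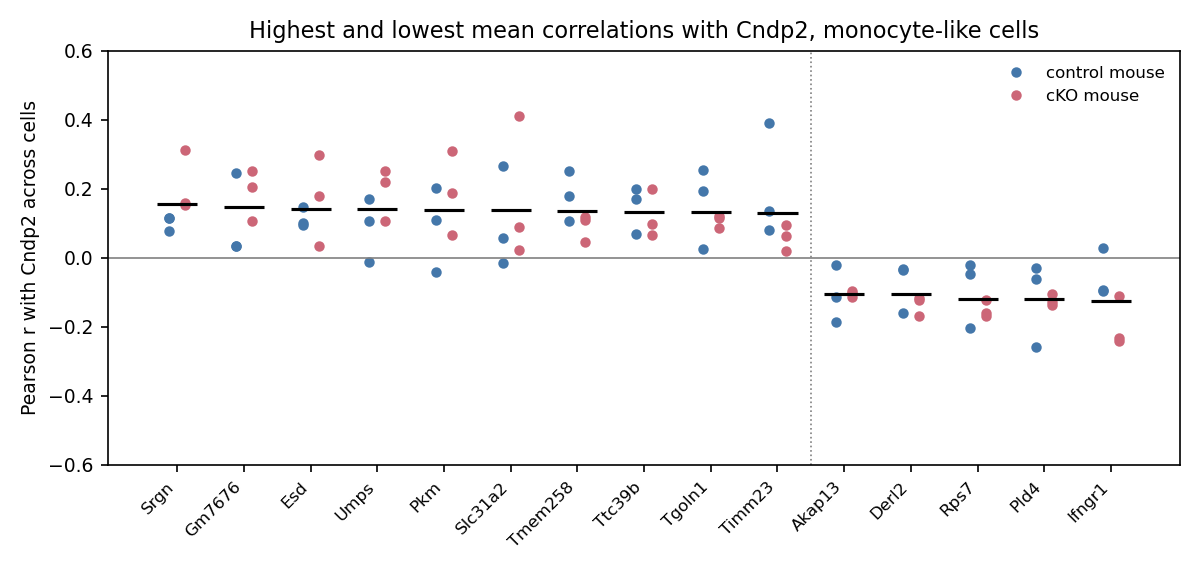
Pearson r with Cndp2 across monocyte-like cells within each of 6 mice, 1 point per mouse, for the 10 genes with the highest and the 5 with the lowest mean r, with control mice to the left, cKO mice to the right and the mean as a bar. Means run from 0.155 (Srgn) to -0.125 (Ifngr1), and the spread between mice exceeds the difference between neighbouring genes.

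Across cell classes of control mice, the 5 genes whose levels on the log2(CPM + 10) scale were most like those of Cndp2 were Fbxo6 (r = 0.947), Aimp1 (0.915), Acsl5 (0.899), Msantd4 (0.896) and Ggps1 (0.895), over 10 classes and 8273 genes. In cKO mice, over 8717 genes, they were Tarm1 (0.934), Ninj1 (0.930), Fpr2 (0.926), Tlr13 (0.920) and Clec4d (0.916). The lists shared no gene. All classes share their mice and the control levels of Cndp2 span a narrow range, so these values order genes by likeness and carry no test.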

How the data were processed

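Whole-number UMI counts per gene and cell were deposited by the authors for all 8 mice in a single table, without normalization. The submitters' processing notes name Cell Ranger, STAR 2.5.3a, R 3.5.0 and mm10. All 5947 cell columns were joined to a mouse by the well in their name. The barcodes in these names are running numbers, so the 25 that wells have in common do not show shared cells, and 88 of 16889 genes had no symbol.

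Cndp2 and the gene lists were chosen with earlier results of these data known. Cells with a log10 UMI total of at least 2.8, a log10 gene number of at least 2.6, no haemoglobin UMIs and mitochondrial UMIs not over 5% were kept, as the study's methods state (3213 cells, 497531 to 3762314 UMIs per mouse). Scrublet calls (scanpy 1.11.5) were kept in the main values. Cells were normalized by pooled size factors (scran 1.30.0, smallest pool of 50 cells) and divided into 9 Ward clusters, with Cndp2, Slc3a2, EYFP, the gene lists and the study's differential genes left out. A cluster was named from marker lists, needing markers among its 10 leading genes by fold.

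UMIs were summed per mouse, or per mouse and class from 20 cells. Genes over 1 CPM in 3 sums and with a UMI in at least 20 cells were fitted in edgeR 4.0.16 under R 4.3.3 (TMM, glmQLFit, glmQLFTest), with all classes in a single fit, and adjusted by Benjamini-Hochberg over all tested genes, with a threshold of 0.05. The class fit had no term for the mouse, so sums of 1 mouse in several classes counted as independent. Its SEs and p-values may therefore be too small. The fits were tested on simulated data. Cndp2 takes its fold and SE from these fits without a p. Shares carry 95% Wilson intervals in the underlying values, ratios an exact counting interval, and a level of 0 a floor of 3 UMIs. These cover counting error only. Correlations used log2 normalized counts within mice. Positions are those of GENCODE on GRCm38.

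Genes named are Cndp2, Slc3a2, list genes past the threshold, tested chromosome neighbours within 1 Mb, the 10 highest and 5 lowest correlations in monocyte-like cells, and the 5 class patterns most like Cndp2 in control mice. Cndp1, Pepd, Lap3, Slc7a11, Ldha, EYFP and the class patterns in cKO mice were added after their values were seen. Alternatives were DESeq2 1.42.0, the likelihood ratio test, no low-count filter, other cell sets, other clusterings, thinned cells and leaving out each mouse. Library totals without TMM, the loss of both shallow mice, each monocyte-like cluster alone and correlations without doublet calls were added after seeing the data.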

Additional observations from a re-analysis of the deposited data

Results flagged for a closer look

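Barcodes that the cell filter removed also carried Cndp2, and they enter no comparison above. In control mice the removed barcodes stood between 18.7 and 35.1 CPM (20 Cndp2 UMIs over 1331 barcodes). In cKO mice 6, 7 and 8 they stood at 92.2, 162 and 86.4 CPM, above every control mouse, while those of cKO mouse 5 stood at 20.5 CPM with 1 UMI (63 Cndp2 UMIs over 1403 cKO barcodes). These barcodes are shallow, with medians of 218 to 389 UMIs, and 40 to 421 of them per mouse held over 5% mitochondrial UMIs. The part of depth and of mitochondrial share in these levels was not tested. In none of 36 sets of 4 values did a mouse pass the critical value of Dixon's criterion. With 4 values this criterion finds only a mouse far from the others, so it does not show that the mice were alike.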

How the results depend on the processing

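The alternatives refit the mice and the contrast by which Cndp2 was chosen, so nothing is read from the sign of its log2 fold change. It was above 0 in all 134 values computed under alternatives. The spread between mice, on the log2(CPM + 10) scale, ran from 0.20 (Chil3 monocyte-like cells) to 1.06 (Ccl8 cluster). Of the 134 values, 124 moved by less than this spread. Those that moved more were, on all genes in the clustering, 3.71 in Il1a monocyte-like cells, 2.66 in Chil3 monocyte-like cells and 1.52 in the Cebpb cluster, where the matched clusters shared as little as 0.254 of their joint cells and the Il1a value rests on 1 control mouse. In Fcrls macrophage-like cells it was 2.16 with 12 clusters, which left 1 cKO mouse, and 1.39 with at least 10 cells per sum. A lone mouse is assumed to vary like the other groups. Leaving out single mice gave 1.94 to 2.63 in the Ccl24 cluster, 2.06 to 4.19 in the Ccl8 cluster, 1.38 to 1.82 in the Fcrls cluster and 2.15 to 3.55 in Il1a monocyte-like cells. Only 2 or 3 control mice held 20 or more cells of several classes, and cKO mouse 5 held them in none that was fitted, which limits the class values.

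List genes called in all cells (6) fell to 3 without doublet calls (Ggct, Naaa and Slc15a3) and ranged from 2 to 8 when single mice were left out. Neighbours called (1, Cyb5a) fell to 0 without doublet calls (adjusted p 0.0527) or without both shallow mice (0.0719) in edgeR, and ranged from 0 to 1 when single mice were left out. List genes called within classes (1, Ldha) became 0 by DESeq2 with each class alone, 0 on all genes in the clustering and 0 with at least 10 cells per sum. They became 2 without a low-count filter, 2 with 12 clusters (Slc7a11 added) and 3 with each class fitted alone in edgeR, and ranged from 0 to 1 when single mice were left out. The adjusted p of Ldha was then 0.0521, 0.923 and 0.1001 in the settings with no call. Genes called in all cells (510) became 1038 by the likelihood ratio test, 787 without a low-count filter, and 145 to 712 when single mice were left out.

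Of the 10 genes correlated most with Cndp2, the first 20 held 0 after thinning, 3 with cells pooled over mice, 2 in control mice alone, 4 in cKO mice alone, 4 in Chil3 monocyte-like cells and 0 in Il1a monocyte-like cells. Thinned, the mean r of Umps, Tmem258 and Ttc39b reversed to -0.014, -0.021 and -0.028. Thinning to 1000 UMIs set the detection of Cndp2 in control and cKO cells to 3.13% and 21.8% in Il1a monocyte-like, 2.86% and 11.7% in Chil3 monocyte-like, 2.33% and 8.23% in Ccl24, 3.64% and 12.4% in Fcrls, 3.10% and 5.91% in dendritic cell-like, 3.09% and 4.35% in lymphoid-like and 3.62% and 2.24% in stromal-like cells, and to 13.04% and 13.4% in cKO cells of the Ccl8 and Cebpb clusters. With 12 clusters it was 53.1% in Fcrls cKO cells. No paired analysis was possible because the replicate numbers of control and cKO mice are not shared.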
